A study of Mus musculus with 4 samples.

Results

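Neuregulins are growth factors with an EGF-like domain, and the ErbB receptors are the tyrosine kinases that they and related ligands engage. Levels of 7 genes of this system were followed through the nuclei of mouse hippocampus: the ligands Nrg1, Nrg2 and Nrg3 and the receptors Egfr (ErbB1), Erbb2, Erbb3 and Erbb4. They were taken by symbol from the 22989 genes listed in any of 4 single-nucleus RNA libraries. Of these 7 genes, 6 were listed in all libraries, and Erbb2 was listed only in the library labelled total knockout. The libraries are 1 each from wild-type mice (WT) and from mice whose MAGL-KO is labelled total/global (tKO), astrocyte specific (aKO) or neuron specific (nKO). MAGL, encoded by Mgll, breaks down the endocannabinoid 2-arachidonoylglycerol. The labels name no strain, age, number of animals per library, or promoter and Cre line behind the cell-specific knockouts.

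A neuregulin usually acts between neighbouring cells: the ligand sits in the membrane of a neuron or its axon, is cut by proteases, and binds ErbB3 or ErbB4 on the partner cell. ErbB2 binds no known ligand and serves as a partner in receptor pairs, ErbB3 has a weak kinase and signals through its partners, and Egfr binds EGF and its relatives rather than neuregulins. In the forebrain ErbB4 is known as a receptor of inhibitory interneurons that shapes their synapses, and neuregulin from axons is known to act on cells of the oligodendrocyte lineage.

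Nuclei were placed into classes by marker genes that include none of the 7. A nucleus entered excitatory or inhibitory neurons with at least 3 markers detected, and glia with at least 4, when it reached no other class. Of the 8966, 23707, 10024 and 8659 nuclei kept (in the order WT, tKO, aKO, nKO, used for every list of 4 values below), 12.2%, 27.4%, 16.6% and 15.0% reached no class. Orders of classes below run over 12 classes, and medium spiny neurons are left out of them, with 3 and 7 nuclei in aKO and nKO. These classes and the pooled classes compared below held between 18 and 11631 nuclei per library. The classes were smallest in astrocytes (83, 68, 18 and 47 nuclei), Vip interneurons (41, 83, 19 and 18) and oligodendrocyte precursors (286, 605, 20 and 19). The 8 dentate granule markers placed the nuclei of that class, so their levels in it check nothing about the labelled tissue, and their sum was as large in oligodendrocytes (3747 to 5036 CPM) as in the granule class (3943 to 4133).

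The libraries held 81623644 to 193307038 UMIs, with medians of 5456 (tKO) to 8904 (WT) UMIs per nucleus. The library labelled total knockout had the most barcodes, the lowest depth and nearly no nuclei with Xist and without Y-linked RNA (3, against 3550 to 4315 in the others). Nuclei with Y-linked RNA and without Xist numbered 3733, 19229, 4171 and 4045. WT, aKO and nKO thus held nuclei of both sexes, and so of more than 1 animal each, and tKO nearly only male nuclei. It also held 549 nuclei with medium spiny neuron markers, against 3 to 24 elsewhere. Pairs of libraries shared 108 to 466 barcode sequences, at most 4.63% of the smaller library. Mgll in excitatory neurons stood at 101, 78.2, 101 and 105 CPM (counts scaled to 1000000 UMIs of the class), and in astrocytes at 464, 375, 474 and 562. In inhibitory neurons it stood at 121, 123, 132 and 122. It was thus no lower in the class named by the label in the cell-specific knockouts, nor in inhibitory neurons of the library labelled total knockout. The labels do not say which exons were deleted, so these counts check no label, and libraries are called by their labels.

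Nrg3, a ligand of ErbB4, was the most abundant neuregulin RNA of excitatory and inhibitory neurons. Mean levels in excitatory neurons were 6855 CPM of Nrg3, 1746 of Nrg1 and 123 of Nrg2. Divided by gene span, per 100 kb, these were 621, 163 and 68.2 CPM. In inhibitory neurons the means were 5355, 489.7 and 169 CPM, and per 100 kb of span 485, 45.8 and 94.0, so that Nrg1 stood above Nrg2 in CPM and below it per span. Introns add to counts of long genes in nuclei, and since the labels do not say how introns were counted, values per span are an approximate scale. The spans were read from GENCODE M21 on GRCm38: Nrg3 lies at chr14:38368952-39473088, Nrg1 at chr8:31814551-32884029 and Nrg2 at chr18:36017652-36197380, all on the minus strand.

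Nrg3 was at least 3437 CPM in every library of every neuron class of the order, with steps between classes. In excitatory neurons it was 6797, 6817, 7079 and 6727 CPM. The order of class means over the 4 libraries began with Vip interneurons (9229 ± 1565 CPM, SD, n = 4 libraries) and CA2/CA3 neurons (7868 ± 225), whose ranges overlapped. Excitatory neurons without a subtype followed at 7147 ± 107, below every library of CA2/CA3. CA1 (6281 ± 168), Sst (6135 ± 111) and dentate granule neurons (5994 ± 236) overlapped their neighbours, as did Pvalb (5303 ± 158) and CCK-type interneurons (5261 ± 676) below them. Lamp5 interneurons were the lowest of these neuron classes at 3778 ± 377 CPM, apart from CCK-type above and from oligodendrocyte precursors (2221 ± 477) below.

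Among glia, Nrg3 was highest in oligodendrocyte precursors, at 1939, 1938, 2076 and 2929 CPM, and the median precursor nucleus of WT held 17.4 per 10000 UMIs. Astrocytes held 330, 154, 0 and 68.1 CPM, from 76, 16, 0 and 8 UMIs. In oligodendrocytes Nrg3 was uneven: they held 482, 226, 1902 and 1080 CPM, from 472, 479, 314 and 220 UMIs. Nearly all of this sat in a few nuclei: 12, 14, 8 and 5 oligodendrocyte nuclei with at least 10 Nrg3 UMIs held 92.8%, 86.4%, 97.8% and 100% of it. The remaining oligodendrocytes stood at 38.8, 31.8, 75.5 and 0 CPM. The few nuclei with many Nrg3 UMIs were deep, with medians of 7388, 4902, 8982 and 10411 UMIs against 2027, 1224, 1455 and 1790 in the rest. They also held Slc17a7, the vesicular glutamate transporter of excitatory neurons, at 126, 39.4, 207 and 40.2 CPM against 4.56, 1.47, 10.8 and 0 in the rest. Across all oligodendrocytes the 8 excitatory markers summed to 87.8, 52.4, 490.5 and 152 CPM, with 6, 8, 3 and 3 of them detected. The threshold of 10 UMIs, here and below, was chosen after values were seen and passes more easily in deep nuclei. Since it cuts on the gene itself, the remaining nuclei are low in that gene by construction.

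Nrg1, the best-known neuregulin and a ligand of ErbB3 and ErbB4, was higher in excitatory than in inhibitory neurons as a whole and differed strongly among excitatory classes. Excitatory neurons without a subtype held 2865, 3083, 2316 and 2639 CPM (mean 2726 ± 328), above every library of every other class shown. This class made up 2646 of 5804, 7015 of 11631, 3013 of 6852 and 2753 of 5738 excitatory nuclei. It enters the pooled excitatory means, and the brain region of its nuclei was not determined. CA1 neurons came next at 1294, 1368, 1218 and 1264 CPM, again with no overlap. Dentate granule neurons held 620, 869, 868 and 789 CPM, which overlapped oligodendrocyte precursors (824, 908, 643 and 839) and Lamp5 interneurons (502, 747, 693 and 570).

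CA2/CA3 neurons held the lowest Nrg1 of the excitatory classes, at 537, 516, 262 and 512 CPM. The median CA2/CA3 nucleus had none, and 115, 134, 81 and 105 nuclei with at least 10 UMIs (21.1%, 13.7%, 8.89% and 18.7% of the class) held 91.4%, 85.1%, 73.9% and 88.0% of it. Among interneurons, Pvalb (368 ± 94.0 CPM) and Sst (327 ± 65.2) had the lowest means, and they overlapped each other and Vip (400 ± 117). Oligodendrocytes (172 ± 43.9) and astrocytes (149 ± 36.6) overlapped each other below all neurons.

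Nrg2, another ligand of ErbB4, marked a different set of neurons. Dentate granule neurons held 319, 338, 352 and 347 CPM and Lamp5 interneurons 257, 268, 336 and 251, overlapping ranges above the other classes of the order. Medium spiny neurons, outside the order, held 316 and 340 CPM in WT and tKO. In CA1 neurons it stood at 59.1, 62.4, 60.1 and 63.3 CPM and in CA2/CA3 neurons at 43.3, 37.1, 29.1 and 37.4. Oligodendrocyte precursors (178 ± 12.4) and Pvalb interneurons (161 ± 16.8) overlapped each other in between. Of the ligands, Nrg2 thus ranked dentate granule neurons first and Nrg1 did not.

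**Figure D1:**
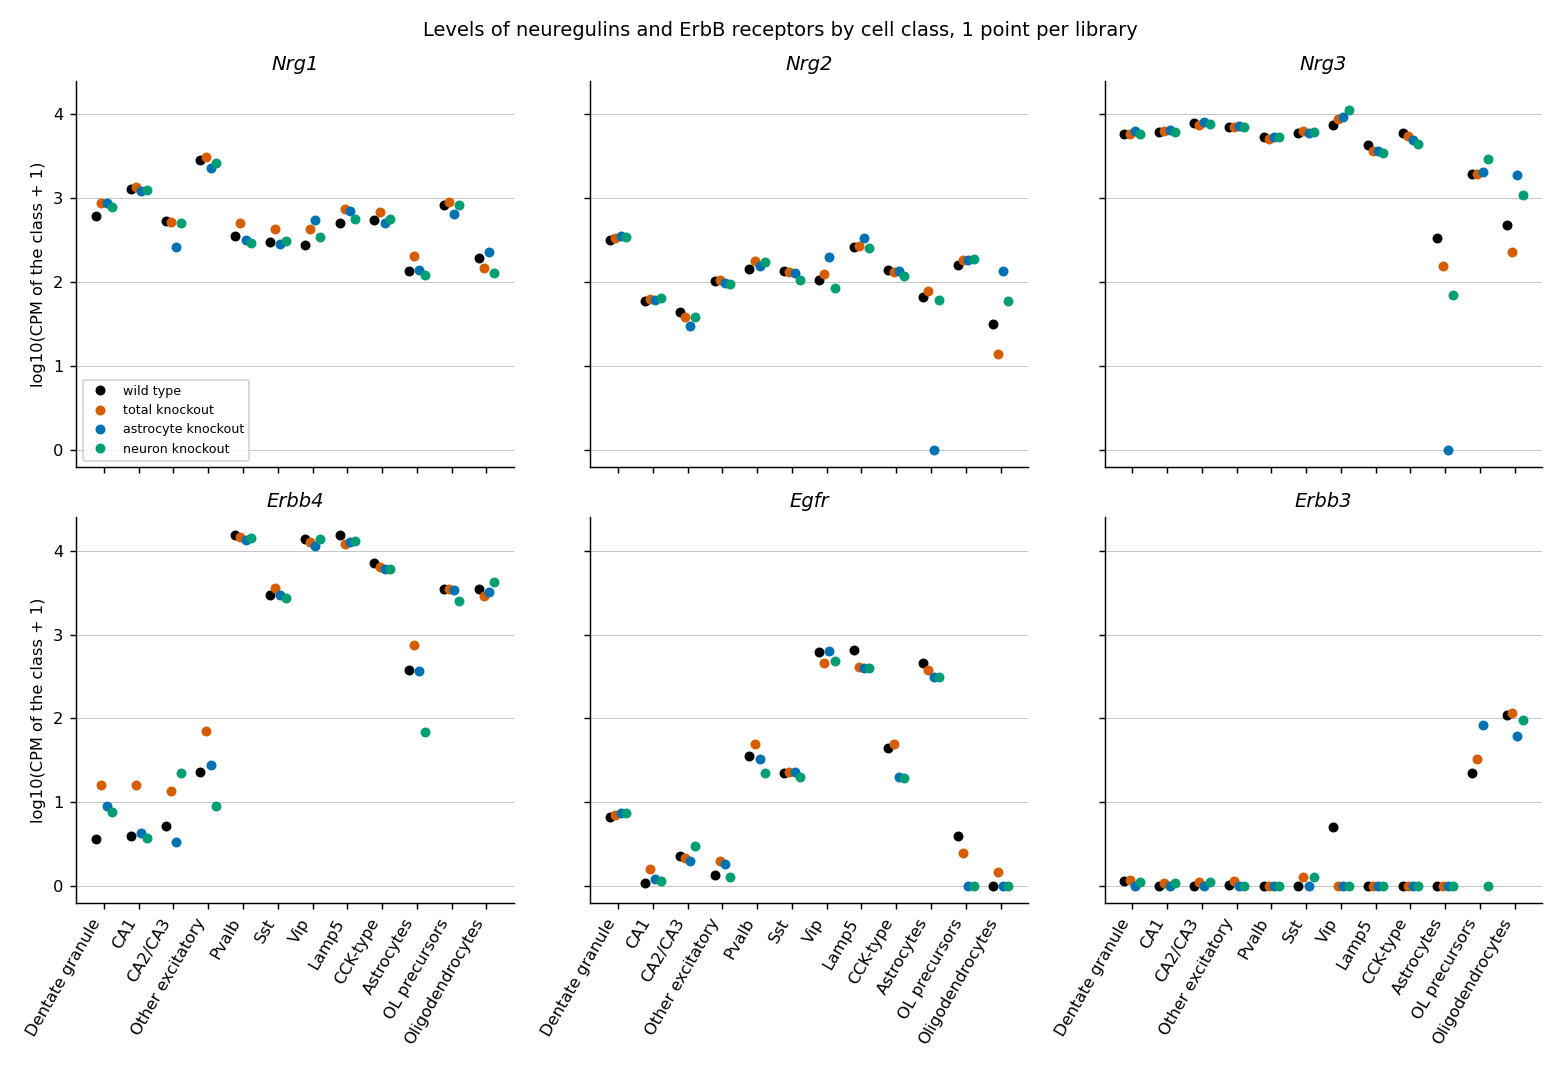
Level of the 6 genes listed in all libraries in 12 cell classes, as log10(CPM + 1), with 1 point per library. Erbb4 falls from 13491 to 15482 CPM in Pvalb interneurons to at most 70.3 CPM in the excitatory classes, while Nrg3 is at least 3437 CPM in the neuron classes shown.

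Erbb4 (chr1:68032186-69108059, minus strand), the neuregulin receptor kinase with its own ligand site and active kinase, was the leading receptor RNA of interneurons. Pvalb interneurons held 15482, 14638, 13491 and 14358 CPM, Lamp5 interneurons 15361, 12025, 12820 and 12995, and Vip interneurons 13970, 12863, 11325 and 13878. These 3 classes overlapped. CCK-type interneurons held 7138, 6467, 6084 and 5991 CPM, below all of them and above every library of the classes that follow. Sst interneurons held 2962, 3570, 2956 and 2761 CPM, in the range of oligodendrocytes (3525, 2853, 3192 and 4228) and oligodendrocyte precursors (3492, 3533, 3378 and 2535). Per 100 kb of span, Pvalb interneurons held 1347 CPM of Erbb4 and Lamp5 interneurons 1236.

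Within Sst interneurons Erbb4 was spread unevenly over nuclei. Sst nuclei with at least 10 Erbb4 UMIs numbered 128, 291, 134 and 176, or 53.8%, 51.3%, 46.4% and 49.2% of the class, and held 92.2% to 95.1% of its Erbb4. The somatostatin gene Sst itself was lower in the Erbb4-rich nuclei (3483, 2107, 2177 and 2541 CPM) than in the others (6087, 3385, 4054 and 4527), in 4 of 4 libraries.

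Excitatory neurons held very little Erbb4: 11.2, 45.9, 13.1 and 8.35 CPM. A share of nuclei at equal depth gives the same contrast. Each nucleus was thinned to 1000 UMIs, and 99.2%, 94.5%, 93.3% and 96.5% of Pvalb nuclei still held an Erbb4 UMI, against 0.345%, 1.59%, 0.642% and 0.507% of excitatory nuclei. Without thinning the excitatory shares were 2.88%, 5.30%, 2.99% and 4.32% at median depths of 9947, 6188, 7929 and 9131 UMIs. Free RNA in the droplets was not estimated, so its part in these shares was not tested. In excitatory neurons 9, 78, 15 and 4 nuclei with at least 10 Erbb4 UMIs held 73.6%, 75.9%, 67.8% and 40.7% of the class's Erbb4. Of these, 3, 22, 8 and 2 had a UMI of Gad1 or Gad2, the enzymes of GABA synthesis, as did 481 of 5795, 637 of 11553, 444 of 6837 and 477 of 5734 other excitatory nuclei. Most of the Erbb4-rich nuclei had no excitatory subtype, and 3 of 8, 17 of 68, 7 of 13 and 1 of 3 of those held Gad1 or Gad2. The other nuclei without a subtype did so in 59 of 2638, 147 of 6947, 75 of 3000 and 81 of 2750. Over all excitatory neurons, Slc17a7 in the Erbb4-rich nuclei stood at 247, 184, 193 and 82.3 CPM, against 267, 264, 281 and 232 in the others. Without the Erbb4-rich nuclei, Erbb4 of all excitatory neurons stood at 2.96, 11.2, 4.22 and 4.96 CPM.

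Of Sst nuclei, 62.6% (exact 95% interval 56.1% to 68.8%), 69.8% (65.9% to 73.6%), 60.9% (55% to 66.6%) and 63.7% (58.5% to 68.7%) held an Erbb4 UMI at 1000 UMIs. In Lamp5 interneurons the shares were 98.4%, 84.1%, 86.7% and 87.4%. Oligodendrocyte precursors held 95%, 94.1%, 80.0% and 84.2%, and oligodendrocytes 75.7%, 78.1%, 90.5% and 65.0%, leaving out 370 of 1397 shallow oligodendrocytes in tKO and at most 5 in the others. Intervals of shares and levels cover counting error only.

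Egfr (chr11:16752203-16918158, plus strand), the receptor of EGF, was restricted to fewer classes. Vip interneurons held 620, 454, 637 and 483 CPM, Lamp5 interneurons 651, 414, 396 and 397, and astrocytes 451, 375, 307 and 306, and these overlapped. Pvalb (33.7 ± 10.9), CCK-type (32.3 ± 15.9) and Sst interneurons (21.0 ± 1.34) were more than 10-fold lower on average. Dentate granule neurons held a small and even amount, 5.63, 6.0, 6.35 and 6.41 CPM, apart from CA1 at 0.0676, 0.567, 0.192 and 0.142.

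Lamp5 interneurons held both Egfr and Erbb4. At 1000 UMIs, 43.5%, 33.1%, 29.1% and 30.5% of Lamp5 nuclei held an Egfr UMI, and 43.5%, 33.1%, 29.1% and 30.0% held both receptors. Since 84.1% to 98.4% of Lamp5 nuclei held an Erbb4 UMI, most nuclei with Egfr would hold both without any association. The Egfr share in excitatory nuclei was 0.172%, 0.138%, 0.0876% and 0.122%. Lamp5 nuclei with at least 10 Erbb4 UMIs held Egfr at 668, 524, 473 and 463 CPM. The 3, 66, 28 and 29 Lamp5 nuclei below that number held 0, 6.39, 12.2 and 24.6 CPM.

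Erbb3 (chr10:128567523-128589652, minus strand), the weak kinase that binds Nrg1, was found in the oligodendrocyte lineage. Oligodendrocytes held 108, 115, 60.6 and 93.3 CPM, from 106, 243, 10 and 19 UMIs. Precursors held 21.2, 31.2, 82.4 and 0 CPM from 22, 43, 5 and 0 UMIs, so the 2 small libraries rest on a handful of counts. Excitatory neurons held 0.0474, 0.139, 0 and 0.0525 CPM. Astrocytes had no Erbb3 UMI, which at 3 counts per library allows up to 13.0, 28.9, 83.7 and 25.5 CPM. Its gene is short (22.1 kb), and per 100 kb of span oligodendrocytes held 426 CPM of Erbb3 beside 321 of Erbb4 and 0.0711 of Egfr.

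Erbb2 (chr11:98412470-98437716, plus strand), the receptor without a ligand, had 20 UMIs in the library labelled total knockout. It was not tested. In its kept nuclei, excitatory neurons held 4 of them, or 0.0505 CPM (0.0138 to 0.129), and inhibitory neurons none, which allows up to 0.184 CPM.

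**Figure D2:**
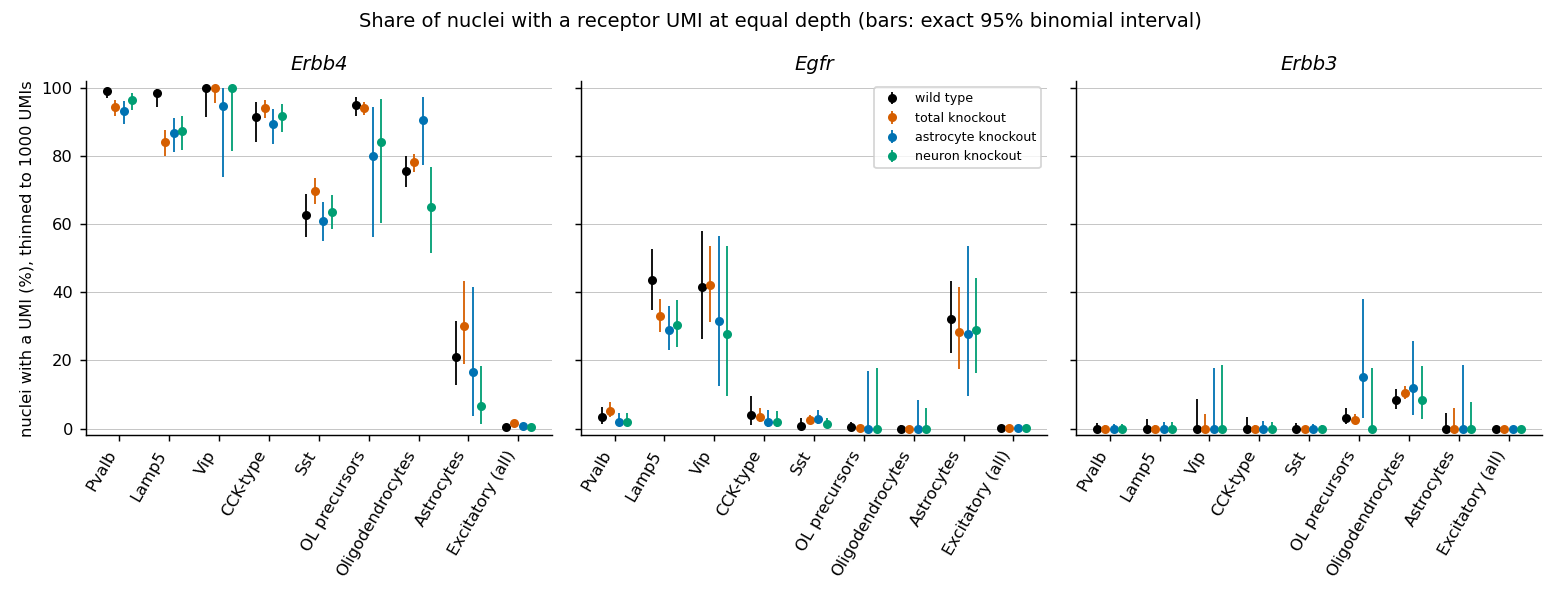
Share of nuclei (%) with at least 1 UMI of Erbb4, Egfr or Erbb3 after thinning each nucleus to 1000 UMIs, for 9 classes and 4 libraries, with exact 95% binomial intervals. Erbb4 is held by 93.3% to 99.2% of Pvalb nuclei and 60.9% to 69.8% of Sst nuclei, Egfr by 27.8% to 43.5% of Vip, Lamp5 and astrocyte nuclei, and Erbb3 by 8.29% to 11.9% of oligodendrocytes.

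Class differences were tested over the libraries with edgeR's quasi-likelihood test and Benjamini-Hochberg adjustment over all genes, on UMIs summed per class and library, with the library as a block. The 4 libraries served as replicates of a class, not of a genotype. The labels do not say how many animals each library pooled, and the p-values measure the spread between these 4 libraries. Inhibitory against excitatory neurons passed for 5 of the 5 genes that could be tested, where 61.7% of all genes passed. Erbb4 was higher in inhibitory neurons (9186 ± 862 against 19.6 ± 17.6 CPM) by 9.09 ± 0.45 on the log2 scale (± SE), adjusted p = 3.82e-07. Egfr was higher by 6.09 ± 0.09 (114 ± 22.5 against 1.56 ± 0.0529 CPM, adjusted p = 1.46e-09). Nrg1 fell by 1.95 on the log2 scale (SE 0.08, adjusted p = 1.89e-07). Nrg3 was lower by a smaller step (log2 -0.45 ± 0.05, adjusted p = 8.62e-05) and Nrg2 slightly higher (0.37 ± 0.07, adjusted p = 0.00145). Each direction held in 4 of 4 libraries.

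Between dentate granule and CA1 neurons, 4 of 5 tested genes passed, against 60.7% of all genes. Nrg2 was higher in granule neurons by 2.44 ± 0.04 (339 ± 14.4 against 61.2 ± 1.95 CPM, adjusted p = 1.11e-13) and Egfr by 4.59 ± 0.30 (adjusted p = 2.90e-08). CA1 neurons held 1, 8, 3 and 2 Egfr UMIs. Egfr thus passed the filter on low counts through granule neurons alone, and its call could hardly have come out otherwise. Nrg1 was lower (log2 -0.75 ± 0.07, 786 ± 117 against 1286 ± 63.3 CPM, adjusted p = 1.58e-06). Nrg3 differed by only -0.10 ± 0.03 (adjusted p = 0.0196), and this call was lost without tKO (adjusted p = 0.108) and without the library block (0.174). Erbb4 did not pass (8.05 ± 5.17 against 5.99 ± 5.98 CPM, 0.45 ± 0.22, adjusted p = 0.0891). It passed without tKO (0.84, adjusted p = 0.0139), with doublets kept (1.49, 0.00522) and with 1 more marker in the gate (1.09, 0.00561).

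Inhibitory neurons are grouped by the embryonic zone they come from, and MGE-type neurons (with Pvalb and Sst) were set against CGE-type neurons (with Vip and CCK). Of 5 genes, 3 passed, against 35.5% of all genes. Egfr was lower in the MGE type by a log2 value of -3.15 ± 0.18 (22.2 ± 10.6 against 191 ± 63.5 CPM, adjusted p = 3.36e-09). Of the 5691 Egfr UMIs of all inhibitory neurons, MGE-type nuclei held 580 and CGE-type nuclei 2235, and the rest lay in nuclei of neither type. Lamp5 interneurons, with 2865 Egfr UMIs, were not assigned to either type as a class. Nrg1 was also lower in the MGE type (-0.54 ± 0.06, adjusted p = 5.02e-06). Nrg3 was lower (-0.26 ± 0.08, adjusted p = 0.0159), but not without WT (adjusted p = 0.0861), without tKO (0.135) or with 1 more marker (0.115). Erbb4 differed by -0.01 ± 0.06 (adjusted p = 0.897, 9165 ± 769 against 8954 ± 1062 CPM), although the Pvalb and Sst classes stood far apart.

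In oligodendrocytes against excitatory neurons, 6 of 6 genes passed, against 44.1% of all genes. This count includes Erbb3 and Egfr, each of which passed the filter on low counts through 1 of the classes only. The receptors Erbb3 (10.2 ± 0.38, adjusted p = 3.21e-09) and Erbb4 (7.56 ± 0.52, adjusted p = 5.17e-07) were higher in oligodendrocytes, in 4 of 4 libraries. Excitatory neurons held 3, 11, 0 and 3 Erbb3 UMIs. Erbb3 thus passed the filter on low counts through oligodendrocytes alone, and its call could hardly have come out otherwise. The ligands were lower: Nrg1 by a log2 value of -3.64 ± 0.28 (adjusted p = 1.15e-06), Nrg3 by -3.58 ± 0.44 (5.12e-05) and Nrg2 by -1.94 ± 0.43 (0.00329). For Nrg2 the lower level held in 3 of 4 libraries, aKO being higher at 133 CPM, and the call was lost with 1 more marker (adjusted p = 0.202). Egfr passed at adjusted p = 0.0499 with 1 UMI in all oligodendrocytes together, and it did not pass with any 1 of the libraries left out (adjusted p 0.0855 to 0.179). It passed the filter on low counts through excitatory neurons alone. The excitatory marker Slc17a7 stood at 17.4, 2.83, 96.9 and 9.82 CPM in oligodendrocytes, and its part in the ligand levels was not tested.

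Oligodendrocyte precursors against oligodendrocytes gave 4 calls among 5 genes, against 36.0% of all genes. All 3 ligands were higher in precursors, Nrg1 by 2.24 ± 0.26 (804 ± 113 against 172 ± 43.9 CPM, adjusted p = 0.000112), Nrg2 by 2.39 ± 0.46 (0.00267) and Nrg3 by 1.66 ± 0.44 (0.0156). Erbb3 was lower in precursors (-1.93 ± 0.35, adjusted p = 0.00184), in 3 of 4 libraries. Erbb4 did not differ beyond its error (-0.11 ± 0.26, adjusted p = 0.786). With 19 and 20 precursor nuclei in nKO and aKO, these calls depended on single libraries: without WT only 2 of the genes passed, Erbb3 having an adjusted p of 0.140 and Nrg3 of 0.0913, and Nrg3 also missed without nKO (0.0692). With 1 more marker in the gate 1 of the genes passed, Nrg1, Nrg2 and Nrg3 having adjusted p of 0.0972, 0.0737 and 0.354.

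Astrocytes against excitatory neurons gave 5 calls among 5 genes, against 31.4% of all genes. Egfr was higher in astrocytes by 7.24 ± 0.28 (360 ± 68.9 against 1.56 ± 0.0529 CPM, adjusted p = 1.18e-143) and Erbb4 by 3.73 ± 0.24 (390 ± 280 against 19.6 ± 17.6 CPM, adjusted p = 1.39e-50). Nrg3 (-6.21 ± 0.38, adjusted p = 9.22e-59), Nrg1 (-4.22 ± 0.32, 8.16e-39) and Nrg2 (-1.65 ± 0.30, 3.43e-07) were lower, in 4 of 4 libraries each. In this comparison edgeR's prior degrees of freedom were infinite for 100% of genes, so these very small p-values rest on a spread pooled over all genes rather than on each gene's own 4 libraries. The 8 inhibitory markers summed to 17.4, 9.62, 0 and 42.5 CPM in astrocytes, and their part in the Erbb4 level was not tested.

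How the libraries are scaled moved the balance of all calls and the direction of no member called above. Erbb4 between MGE-type and CGE-type neurons, not called, went from -0.01 to 0.04 with library totals. In the astrocyte comparison the genes called higher and lower numbered 1751 and 3478 with TMM factors and 2850 and 2000 with library totals, a shift of the median gene by 0.599 on the log2 scale. The corresponding numbers were 2853 and 4623 against 3845 and 3758 for oligodendrocytes (shift 0.237), and 5813 and 5336 against 7291 and 4446 for inhibitory neurons (shift 0.0943).

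**Figure D3:**
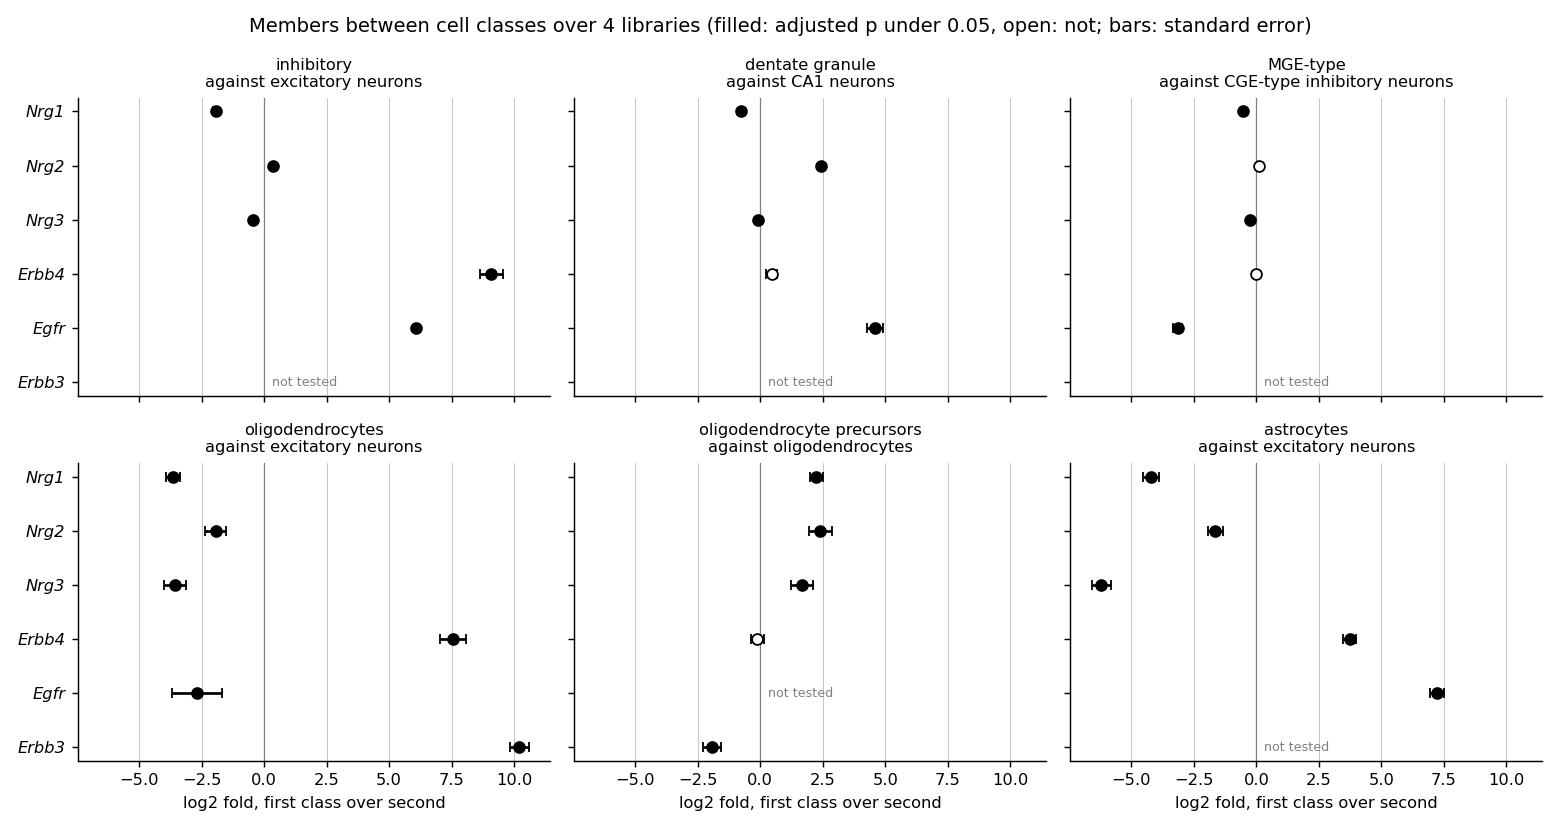
Log2 fold (x axis) of each gene between 2 cell classes in 6 comparisons over 4 libraries, with standard errors. Filled points passed edgeR's test at an adjusted p under 0.05. Erbb4 lies far to the right in inhibitory neurons and oligodendrocytes against excitatory neurons (9.09 and 7.56). Egfr lies left of 0 in oligodendrocytes (-2.69, from 1 UMI in that class), and the ligands lie left of 0 in oligodendrocytes and astrocytes.

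Genes around the receptors were read from a list of 52 genes of ErbB signalling, 50 of them listed in all libraries. In inhibitory against excitatory neurons 23 of 46 tested genes were higher, 16 lower and 7 not called, with a median log2 value of 0.12 beside 0.03 over all genes, of which 32.2% were higher and 29.5% lower. In dentate granule against CA1 neurons 16 of 45 were higher and 21 lower (all genes 31.3% and 29.4%), with a median of -0.12 beside 0.02. In oligodendrocytes against excitatory neurons 23 of 47 were higher and 8 lower (16.8% and 27.3%), with a median of 0.38 beside -0.24. MGE-type against CGE-type neurons gave 9 higher and 10 lower of 44 (18% and 17.4%), with a median of -0.04 beside -0.00321. Precursors against oligodendrocytes gave 9 and 13 of 40 (19.3% and 16.7%), with -0.11 beside -0.04. Astrocytes against excitatory neurons gave 13 and 10 of 47 (10.5% and 20.9%), with -0.21 beside -0.56.

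Within a role, the genes called in the most comparisons are described here. Among the other EGF-family ligands this was Nrg4, a neuregulin that binds ErbB4, called in 5 of 6 comparisons. It was higher in inhibitory than in excitatory neurons (19.7 ± 1.71 against 9.99 ± 0.786 CPM, log2 0.89 ± 0.07) and higher in dentate granule than in CA1 neurons (1.35 ± 0.11). Among the proteases that process ligands, Adam19 was called in all 6, being higher in oligodendrocytes than in excitatory neurons (1.59 ± 0.27, in 3 of 4 libraries) and lower in dentate granule than in CA1 neurons (3.6 ± 0.633 against 15.5 ± 1.33 CPM). Among genes of receptor trafficking and negative regulation, Lrig3 was called in 5, with 47.3 ± 19.7 CPM in oligodendrocytes against 0.836 ± 0.245 in excitatory neurons (5.64 ± 0.26).

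Downstream of the receptors, Gab1, Shc3 and Yes1 were among the genes called in all 6 comparisons. Gab1, a docking protein for PI3 kinase, stood at 811 ± 108 CPM in oligodendrocytes against 2.49 ± 0.474 in excitatory neurons, a log2 value of 8.09 ± 0.27, and was lower in precursors than in oligodendrocytes (-1.96 ± 0.20). Shc3, a neuronal adaptor, was higher in precursors (147 ± 20.1 CPM) than in oligodendrocytes (2.84 ± 2.17) by 5.66 ± 0.31, and lower in dentate granule than in CA1 neurons (-2.21 ± 0.06). Yes1, a Src-family kinase, was higher in inhibitory than in excitatory neurons (72.5 ± 7.15 against 17.7 ± 1.5 CPM, 1.94 ± 0.06).

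The genes whose class pattern was most like that of a member were sought by Pearson's r of log2(CPM + 1) over 13 class means, some of which contain others, among 14107 genes. For Erbb4 these were Steap2 (r = 0.989), Snx8 (0.982) and Ncmap (0.981), and for Egfr Mycn (0.951), Rgs10 (0.95) and Hapln1 (0.948). For Nrg1 they were Sun1 (0.973), Slc39a10 (0.945) and Gm48159 (0.937). For Nrg3 the first were Nrg3os (0.998) and Gm20642 (0.996), antisense genes that overlap Nrg3 on the other strand, then B4galnt1 (0.987). For Nrg2 they were the overlapping antisense gene 4930471G03Rik (0.973), Dcaf1 (0.969) and Nfx1 (0.948). These antisense genes were counted apart and at far lower levels. Nrg3os had its highest class mean in CA2/CA3 neurons (150 CPM, against 7868 of Nrg3). The highest mean of 4930471G03Rik was 6.66 CPM in dentate granule neurons, against 339 of Nrg2. The labels do not say whether strand was used in counting, and a part of antisense reads in the Nrg2 and Nrg3 counts was not tested. Erbb3 held too few UMIs for this comparison. The class means share libraries and depth, and r is a description of these 13 points. It takes no account of how far a gene varied. Sun1 ran only from 50.7 to 73.0 CPM over these means, where Nrg1 ran from 172 to 2726. Dcaf1 ran from 63.9 to 81.2 CPM and Nfx1 from 87.4 to 125, where Nrg2 ran from 36.7 to 339. Others varied more, such as Steap2 (1.09 to 24.4 CPM). Vip interneurons, astrocytes and oligodendrocyte precursors are not among them, having fewer than 20 nuclei in a library. Vip interneurons and astrocytes held Egfr at 549 and 360 CPM on average, so the Egfr match leaves out classes where it is high.

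With 1 library per genotype, knockout and WT libraries can be set side by side but not tested. All ratios below share the WT library, and their intervals cover counting error only. Those of tKO set nearly only male nuclei against nuclei of both sexes in WT. Over 9 classes without shared nuclei, 123 ratios of a gene with at least 100 UMIs were formed, and 20 lay beyond 1.5-fold in either direction. With male nuclei only, 21 of 123 did. The share of all genes beyond 1.5-fold in tKO, aKO and nKO was 7.66%, 7.22% and 6.61% in dentate granule, 7.45%, 5.17% and 6.0% in CA1, 7.91%, 6.77% and 6.59% in CA2/CA3 and 7.99%, 9.18% and 6.43% in other excitatory neurons. It was 8.85%, 8.57% and 8.57% in Pvalb, 7.57%, 9.47% and 7.65% in Sst, 14.0%, 14.3% and 14.3% in Lamp5 and 10.1%, 11.3% and 11.8% in CCK-type interneurons. In oligodendrocytes it was 9.38%, 35.4% and 29.9%. By gene, 9 of 27 Erbb4 ratios, 6 of 15 Egfr, 3 of 27 Nrg3, 1 of 27 Nrg1, 1 of 3 Erbb3 and none of 24 Nrg2 ratios lay beyond.

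The Nrg3 ratios of neuron classes, the Erbb4 ratios of interneuron classes and the Nrg1 ratios of dentate granule neurons lay within 1.5-fold. Nrg3 in dentate granule, CA1, Pvalb and Sst neurons lay within log2 ratios of -0.07 to 0.10 of WT. It was below WT in CCK-type interneurons (-0.15, -0.28 and -0.44) and in Lamp5 interneurons (-0.22, -0.24 and -0.33) of tKO, aKO and nKO. In Lamp5 nuclei with at least 10 Erbb4 UMIs, Nrg3 stood at 4318, 4273, 4052 and 3782 CPM, against 4316, 3714, 3644 and 3437 in all Lamp5 nuclei. The part of the other Lamp5 nuclei in the Nrg3 and Erbb4 ratios was not tested. Erbb4 lay at -0.08, -0.20 and -0.11 in Pvalb interneurons and at -0.35, -0.26 and -0.24 in Lamp5 interneurons of tKO, aKO and nKO. Nrg1 of dentate granule neurons was above WT in all 3 (0.49, 0.48 and 0.35).

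The Erbb4 ratios beyond 1.5-fold all lay in excitatory classes, where its level was low. In dentate granule neurons Erbb4 stood at 2.59, 15.0, 8.01 and 6.61 CPM, log2 ratios of 2.54 (2.00 to 3.11), 1.63 (1.03 to 2.26) and 1.35 (0.74 to 2.00). In CA1 neurons tKO stood 2.33 above WT, 15.0 against 2.97 CPM. Leaving out nuclei with at least 10 Erbb4 UMIs gave 2.59, 8.46, 6.04 and 6.61 CPM in dentate granule nuclei. The same step gave 1.49, 5.27, 2.31 and 2.76 CPM in CA1, and tKO was still the highest of the libraries in both. In CA2/CA3 neurons the values were 4.23, 12.4, 2.35 and 21.4 CPM, and 1 nucleus with 121 UMIs held 70.8% of the Erbb4 of nKO. Leaving out nuclei with at least 10 Erbb4 UMIs gave 4.23, 9.22, 2.35 and 6.26 CPM there. The aKO ratio (log2 -0.85) turned to 0.31 with doublets kept and to 0.12 in male nuclei. In excitatory neurons without a subtype tKO stood at 70.3 and nKO at 8.05 against 22.1 CPM. Without the nuclei of many UMIs these were 14.1, 5.13 and 3.55. The inhibitory marker list in excitatory neurons summed to 18.3, 16.6, 16.7 and 17.6 CPM, of which Gad1, highest in dentate granule neurons, made up 9.25, 8.53, 8.21 and 9.25. Gad2, 1 gene of that list, stood at 0.758, 2.16, 1.25 and 1.28 CPM in excitatory neurons. It was highest in tKO, where the list as a whole was lowest. In CA1 neurons Gad2 stood at 0.203, 1.49, 0.834 and 0.637 CPM and in CA2/CA3 neurons at 0.235, 2.46, 0.542 and 0.625. Erbb4 of CA2/CA3 neurons was highest in nKO instead. In dentate granule neurons Gad2 was highest in nKO (0.913, 1.18, 1.66 and 1.80 CPM). No-class nuclei and called doublets (3.59%, 23.3%, 5.87% and 1.98% of barcodes) were most frequent in tKO, and the part of these nuclei and of Gad2 in the result was not tested.

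**Figure D4:**
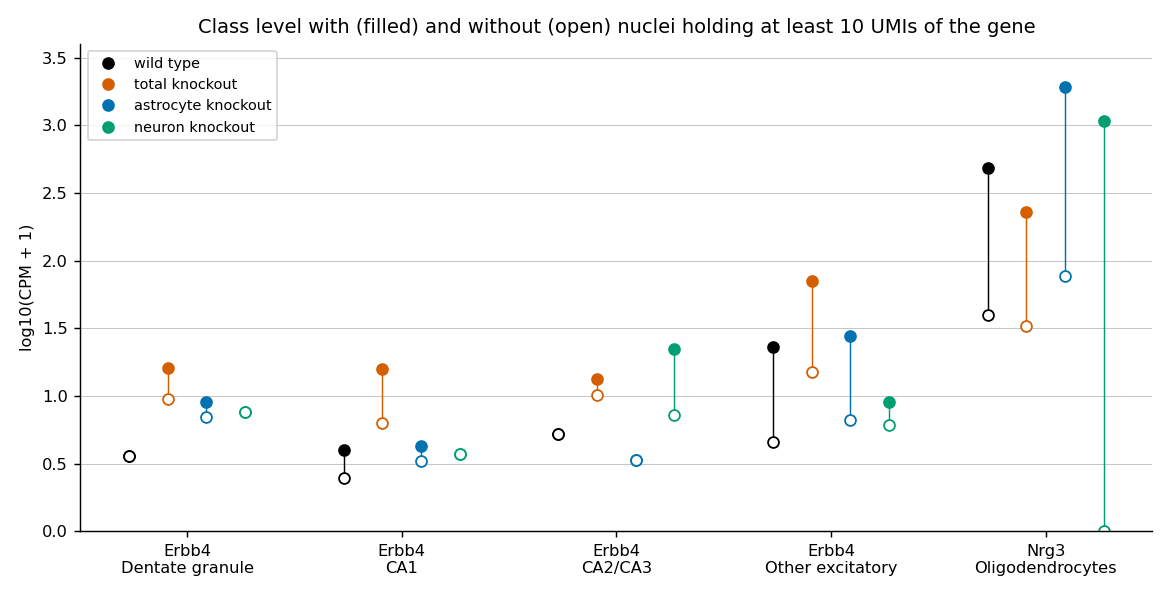
Level as log10(CPM + 1) of Erbb4 in the excitatory classes and of Nrg3 in oligodendrocytes, for all nuclei (filled) and without nuclei holding at least 10 UMIs of the gene (open), per library. Nrg3 in oligodendrocytes drops from 226 to 1902 CPM to at most 75.5 CPM, and Erbb4 of the total knockout library in excitatory neurons without a subtype from 70.3 to 14.1 CPM.

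Egfr was lower than WT in Lamp5 interneurons of all 3 knockout libraries (651, 414, 396 and 397 CPM), with log2 ratios of -0.65 (-0.80 to -0.51), -0.72 (-0.88 to -0.56) and -0.72 (-0.87 to -0.56). With 1 more marker in the gate the ratios of tKO and aKO came to -0.39 and -0.49, within 1.5-fold. The share of Lamp5 nuclei with fewer than 10 Erbb4 UMIs, which held little Egfr, was 2.42% in WT and 17.7%, 13.8% and 15.3% in the others. Of the 5 markers that placed Lamp5 nuclei, only Lamp5 and Ndnf were compared between these nuclei and the Erbb4-rich ones. In the knockout libraries Lamp5 stood at 93.7, 77.3 and 45.1 CPM against 277, 307 and 270 in the Erbb4-rich nuclei. Ndnf was closer, and higher in nKO (217, 244 and 258 against 321, 265 and 246). Npy, not a marker of the class, stood at 4.26, 0 and 12.3 against 374, 444 and 407. Gad1 was lower too (232, 179 and 258 against 671, 657 and 732). The part of these nuclei in the Egfr ratios was not tested. Among the Erbb4-rich Lamp5 nuclei alone Egfr stood at 668, 524, 473 and 463 CPM, highest in WT, but none of the 3 ratios was then beyond 1.5-fold. Egfr was also lower in CCK-type interneurons of aKO and nKO (43.3 against 19.2 and 18.2 CPM), from 47, 26 and 40 UMIs, but not of tKO (48.7 CPM). In Pvalb interneurons of nKO it stood at 21.4 against 34.2 CPM (log2 -0.67), a ratio that turned to 0.10 with 1 more marker in the gate. In the MGE-type class Egfr was above WT in tKO and aKO (14.5, 34.2 and 27.9 CPM), log2 ratios of 1.24 (0.88 to 1.61) and 0.95 (0.55 to 1.35). The MGE-type class does not contain all Pvalb and Sst nuclei, and in those 2 classes no Egfr ratio of tKO or aKO lay beyond 1.5-fold (Pvalb 0.48 and -0.12, Sst 0.05 and 0.06). In the CGE-type class it was beyond 1.5-fold below WT in aKO and nKO (271, 169 and 120 CPM).

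Nrg1 in CA2/CA3 neurons of aKO was the only ligand ratio beyond 1.5-fold among the 8 neuron classes without shared nuclei, at 262 against 537 CPM, log2 -1.04 (-1.11 to -0.97). It came to -0.44, within 1.5-fold, with 1 more marker in the gate. Over all inhibitory neurons together, Nrg1 of tKO also lay beyond it, at 682 against 416 CPM (0.71, 0.66 to 0.76). No inhibitory class with a ratio of its own reached this in tKO. Log2 ratios were 0.49 in Pvalb, 0.51 in Sst, 0.57 in Lamp5 and 0.31 in CCK-type interneurons. They were 0.43 in the MGE type and 0.42 in the CGE type, all within 1.5-fold. The part of inhibitory nuclei outside these classes, and of the mix of classes, was not tested. The share of CA2/CA3 nuclei with at least 10 Nrg1 UMIs was lowest in aKO (8.89%). In oligodendrocytes Nrg3 stood at log2 ratios of -1.09, 1.98 and 1.16, moving with the excitatory marker sums given above, whose part was not tested. The tKO ratio turned to 1.73 with doublets kept. Erbb3 stood at -0.84 in oligodendrocytes of aKO with an interval from -1.94 to 0.10, so from 10 UMIs no difference was detectable.

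**Figure D5:**
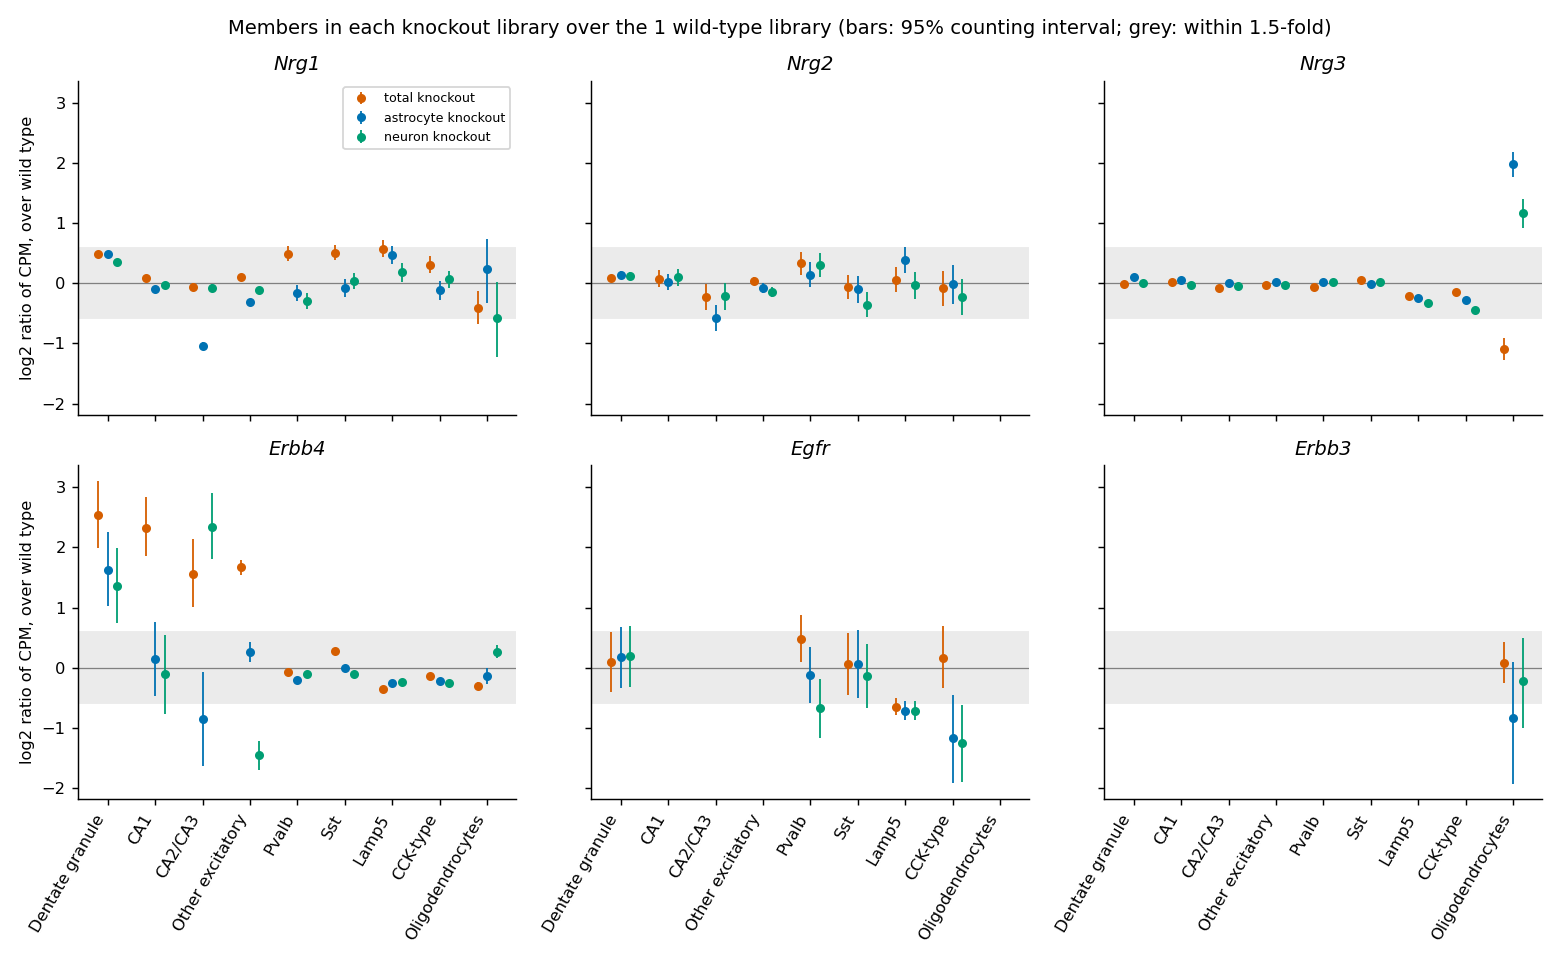
Log2 ratio of CPM of each knockout library over the WT library (y axis) for 6 genes in 9 classes, with 95% counting intervals, the grey band marking 1.5-fold. Most ligand ratios lie in the band, and the widest departures are Erbb4 in excitatory classes (up to 2.54) and Nrg3 in oligodendrocytes (-1.09 to 1.98).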

How the data were processed

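Nuclear RNA of hippocampus was counted in 4 libraries, 1 per genotype. The authors deposited UMI counts per gene symbol and barcode as whole numbers without normalization, made with Cell Ranger ARC 2.0.0 and the mm10 build per the submitters' processing notes; no label gives the annotation, intron or strand settings. Chromatin data of the same nuclei were not analysed here. The barcodes held 400 to 5998 genes, so they had been selected before deposit.

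Nuclei with at least 500 genes and at most 5% mitochondrial UMIs were kept, and doublets called by Scrublet (scanpy 1.11.5, 0.8% expected per 1000 barcodes) removed. Nuclei with the markers of 2 classes (1.04% to 2.14%) were left out. Excitatory subtypes needed 3 markers and a lead of 2, inhibitory subtypes 2 markers. The gate was set after marker counts were seen. UMIs were summed per class and library over the 20211 genes listed in all libraries (at least 99.977% of UMIs) and tested with edgeR 4.0.16 in R 4.3.3 (TMM, filterByExpr, called at an adjusted p under 0.05); DESeq2 1.42.0 was an alternative, and the test was tried on simulated data. CPM are counts scaled to 1000000 UMIs of the class. Ratios carry exact conditional binomial intervals, shares exact Clopper-Pearson intervals and levels exact Poisson intervals, all at 95%. Erbb2 was listed in 1 library and was not joined. Depth was 5456 to 8904 median UMIs per barcode.

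The members, lists and tests were chosen with earlier results of these data known. All 7 members are reported; beyond them, the 3 genes most correlated with each member over classes with at least 20 nuclei per library (at least 500 UMIs), and of the signalling list the genes called in the most comparisons per role, of which some are not reported here. Alternatives were another test, scaling, filter, block, gate, doublets, male nuclei, thinning and each library left out.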

Additional observations from a re-analysis of the deposited data

Results flagged for a closer look

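Nuclei that reached no marker class enter no comparison of the report, and in them several genes stood above the WT library with counting intervals that did not overlap. Nrg1 stood at 1677 CPM in tKO, 1246 in aKO and 1082 in nKO against 982 in WT. Nrg2 stood at 269 CPM in aKO against 238, and Nrg3 at 5981 CPM in aKO against 5469. Erbb4 stood at 1962 CPM in tKO against 1458 in WT, with aKO and nKO lower at 1238 and 1299. Egfr stood at 17 CPM in tKO against 9.78. These nuclei numbered 1097, 6502, 1662 and 1295, and their median depths of 5076, 3572, 4986.5 and 4820 UMIs were below those of the libraries. Of them 714, 3913, 1215 and 900 lacked 1 marker of a neuron class. Most of their Erbb4 sat in a minority of nuclei: 99, 921, 160 and 117 with at least 10 UMIs held 95.2% to 97.0% of it. With 1 library per genotype none of these differences was tested.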

How the results depend on the processing

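Among 127 recomputed counts 121 stayed within 1.5 times their reported value. The exceptions were genes called between MGE-type and CGE-type neurons with DESeq2 (2833 against 4681); members called between precursors and oligodendrocytes with 1 more marker in the gate (1 against 4) or with a library left out (2 to 4); genes called in that comparison with a library left out (1080 to 3357 against 2818, lowest without WT and 1304 without tKO); and ratios beyond 1.5-fold after thinning (34 against 20). Of 310 recomputed member tests 285 kept direction and side of the threshold, 21 lost the call, 3 gained it (Erbb4 between dentate granule and CA1 neurons) and 1 reversed: Egfr in oligodendrocytes, from -2.69 to 0.32 with doublets kept (adjusted p = 0.683), on 1 UMI. Of 99 recomputed single ratios 47 stayed, 47 moved and 5 changed sign: Erbb4 in CA2/CA3 neurons of aKO, at 0.31 with doublets kept and 0.12 in male nuclei; Nrg3 in oligodendrocytes of tKO, at 1.73 with doublets kept; Egfr in Pvalb interneurons of nKO, at 0.10 with 1 more marker; and Erbb3 in oligodendrocytes of aKO, at 0.69 after thinning. The cause was not tested. Erbb3 and Egfr outside their main classes rest on few UMIs, as does Erbb2 in the library that lists it. Classes were paired within libraries by the block. No paired analysis was possible between genotypes because the labels give no replicate numbers and each genotype has 1 library. Without the library block Nrg3 lost its call in 2 comparisons.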

Other observations

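Nuclei with medium spiny neuron markers (24, 549, 3 and 7), cells of the striatum, held Nrg1 at 4843, 7077, 2674 and 1425 CPM. This was above the mean of all excitatory neurons in the 2 libraries with over 20 such nuclei. Their Erbb4 was 2062, 552, 1482 and 1625 CPM and their Nrg3 1658, 1767, 3416 and 2962. Choroid plexus nuclei, 81 in WT and at most 1 elsewhere, held Erbb4 at 1936 CPM from 793 UMIs, Egfr at 65.9 and Nrg3 at 43.9. These classes have no comparison across libraries.

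Nuclei with the markers of 2 classes held Erbb4 at 2126, 2959, 2185 and 2461 CPM. Microglia (17, 59, 6 and 7 nuclei) had no Erbb4 UMI in WT, tKO and nKO.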
